A study of Drosophila melanogaster with 8 samples.

Results

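The genes described here are 10 members of the Fat and Hippo growth control pathway of *Drosophila melanogaster*, namely *ft*, *ds*, *fj*, *ex*, *Mer*, *kibra*, *hpo*, *sav*, *wts* and *yki*. They were taken by symbol from the authors' tables of genes beside a Dam-RNase H1 peak. Of the 10, 8 were listed for control and for ecd1 wing discs, among 9826 genes listed in either table, and *hpo* and *yki* were in neither. For comparison, 58.3% of the annotated protein-coding genes stood in either table and 42.9% in both. The peaks described are the listed peak of each gene and any other within 2000 bp of it, and for *ft* every peak that overlaps the gene. This gave 19 of 8597 control peaks and 23 of 9559 ecd1 peaks.

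Dam-RNase H1 is a fusion of RNase H1, which binds RNA:DNA hybrids, to the bacterial adenine methylase Dam, which marks GATC sites near the bound DNA (Targeted DamID). Wing imaginal discs came from larvae of the third instar, of either control genotype (nub>Dam-RNase H1, 3 libraries; nub>Dam, 1 library) or the temperature-sensitive mutant ecd1 (nub>Dam-RNase H1; ecd1, 3 libraries; nub>Dam; ecd1, 1 library). All larvae carried the UAS-LT3-Dam construct with or without RNase H1 and heat-sensitive tub-Gal80, grew at 25 °C and were dissected on day 7 after egg laying. The last 24 h, from day 6, were spent at 29 °C, for the controls too. The warmth both lifted the Gal80 block on Dam and inactivated the mutant ecd1 protein, and *nub*-Gal4 is a driver of the wing pouch. By this design the values are meant to describe *nub*-expressing cells during that day. Neither the restriction to those cells nor that to the day could be checked here. How many animals were pooled for a library is not given in the sources used here. The label text of the ecd1 Dam-only library names it a Dam-RNase H1 library in 1 field and Dam-only in its title and genotype; every ecd1 value below rests on lists to which it may have contributed.

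Fat and Dachsous are giant cadherins that bind each other between neighbouring cells, and Four-jointed is the Golgi kinase that tunes their affinity. Together with the scaffold proteins Expanded, Merlin and Kibra they feed into a kinase cassette of Hippo, Salvador and Warts. Warts phosphorylates the coactivator Yorkie and keeps it out of the nucleus, which restrains growth of the wing disc. Several upstream genes, among them *ex*, *kibra* and *fj*, are themselves known targets of Yorkie in discs.

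Each genotype has 1 peak list and no value of a single library, so no height below has a replicate error and no difference between the genotypes could be tested here. The height of a peak is the authors' score, without a stated scale, and the FDR is the authors' false discovery rate, at most 0.00991 in the control and 0.00962 in the ecd1 list. The depth of the libraries is unknown. The control list had a median height of 0.88 and a median width of 1575 bp, the ecd1 list 1.10 and 1378 bp. In discs, altered binding per cell and an altered mixture of cells cannot be told apart. The tables of regions that differ between the genotypes are the authors' comparison, with 1 region per gene and direction, and ecd1-side and control-side denote the genotype in which a region was higher. Gene spans are those of RefSeq on release 6 of the genome, the build of the files, and left and right mean lower and higher coordinates.

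All 8 listed genes had peaks in both genotypes, which follows from their being listed for both. Their tallest peaks lay above the median of the respective list, which is a median of single peaks. The like measure is the median tallest peak of genes in both tables, 1.09 in control and 1.41 in ecd1. Below it lay *Mer* (0.98) and *wts* (1.02) in control, and *Mer* (1.24), *sav* (1.29) and *wts* (1.33) in ecd1. The tallest peak was higher in the ecd1 list for 7 of the 8 genes, against a background of 83.9% among the 7212 genes in both tables, so this share is close to that of genes in general. *sav* had the taller peak in control. Over the 8 genes the median of the tallest heights was 1.36 in control and 1.45 in ecd1, where genes in both tables had 1.09 and 1.41. The median difference, ecd1 minus control, was 0.27 for the pathway genes and 0.32 for genes in both tables. Ranked within their own list instead, 4 of the 8 stood higher in ecd1. The share by rank among all genes in both tables was not counted, so this count has no background.

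**Figure D1:**
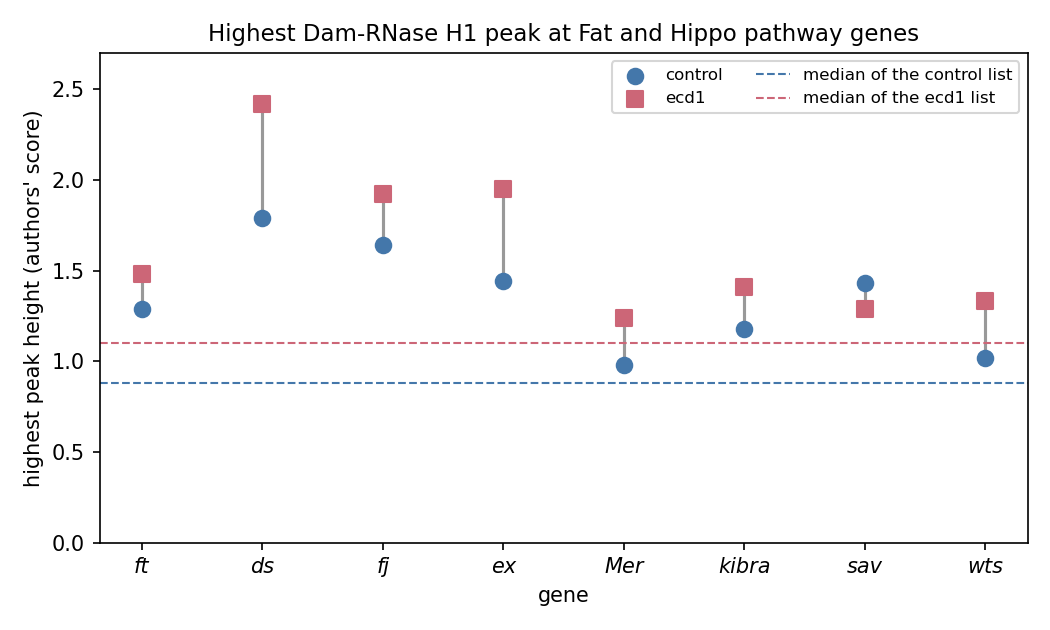
Height of the tallest Dam-RNase H1 peak at each of the 8 listed genes (authors' score, vertical axis) in control (circles) and ecd1 (squares), with 1 value per genotype and no error; dashed lines are the medians of all peaks of each list (0.88 and 1.10). The ecd1 value is above the control value for every gene except *sav*, where 1.43 in control stands above 1.29 in ecd1. The dashed lines are medians of single peaks, not of the tallest peak of a gene.

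At the cadherin gene *ft* (FBgn0001075, 2L:4198404-4221796), 3 control and 5 ecd1 peaks overlapped the gene, covering 28.7% and 35.8% of it. All of them lay in the right part of the span, with none in its first 12118 bp. The tallest and widest, over the right end of *ft* and also listed for *CG3702*, had a height of 1.29 over 7953 bp in control (2L:4217523-4225475) and of 1.48 over 7171 bp in ecd1 (2L:4217484-4224654). In the middle of the gene a control peak of 0.54 (2L:4210522-4211163) met an ecd1 peak of 1.28 (2L:4210522-4211330), and to its right a control peak of 1.26 (2L:4211330-4213125) met an ecd1 peak of 1.14 (2L:4211512-4213125). The first of these places was therefore taller in ecd1 and the next slightly taller in control. Another 2 ecd1 peaks, of 0.46 and 0.54 at 2L:4213348-4214304 and 2L:4216078-4216766, overlapped no control peak and ranked low, above only 3.5% and 7.0% of the ecd1 list. Conversely, 431 bp left of the gene a control peak of 0.75 (2L:4196521-4197973), listed for *CG3714*, met no ecd1 peak.

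The authors' comparison placed opposite differences side by side in the middle of *ft*. The authors' deposited table gives an ecd1-side region at 2L:4210522-4211330 with a height of 0.77 and an FDR of 1e-05, the same interval as the ecd1 peak. Only 182 bp to its right, the authors' deposited table gives a control-side region at 2L:4211512-4212279 with 1.14 and an FDR of 0.0002. That value exceeds 97.7% of all control-side regions in the authors' deposited table, and it is the tallest of the 12 regions named for the pathway genes in either direction. The region is wholly within peaks of both genotypes. Those peaks had similar heights, 1.26 in control and 1.14 in ecd1, so the peak lists show little of this difference. How the height of a region relates to the heights of peaks is not stated.

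The gene of the Fat ligand, *ds* (FBgn0000497, 2L:640013-714983), is 74971 bp long and held 16 control and 18 ecd1 peaks. Among 1596 listed genes with spans of at least 10000 bp, 99.2% had fewer control peaks and 99.4% fewer ecd1 peaks. These genes had a median of 2 peaks in each genotype and were not matched to the length of *ds*. The rank is thus no measure of peaks per length. Heights ran from 0.31 to 1.79 with a median of 1.08 in control, and from 0.67 to 2.42 with a median of 1.26 in ecd1. Peaks covered 62.9% of the gene in control and 53.1% in ecd1, so the ecd1 peaks were more numerous but occupied less of it. The listed peak, well inside the gene, was the tallest in both lists, at 1.79 in control (2L:695776-697200) and 2.42 in ecd1 (2L:695776-697062). It stood above 97.3% of the control and 97.7% of the ecd1 peaks. The neighbouring 7554 bp peak had the same ends in both lists and heights of 1.22 and 1.34.

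Several broad control peaks of *ds* were met by a row of narrower ecd1 peaks. The control peak at 2L:643500-652933 (9434 bp, height 1.13) overlapped 3 ecd1 peaks of 1.24, 1.55 and 1.82. The one at 2L:666701-676949 (10249 bp, 1.29) overlapped 4, of 0.76, 2.33, 0.69 and 1.66. Their heights thus lay on both sides of the control value in the latter case and above it in the former. Over all 10 genes, 8 of 31 control peaks on the gene spans overlapped at least 2 ecd1 peaks, where 6.32% of all control peaks did. *ds* alone held 16 of these 31 control peaks and 18 of the 35 ecd1 peaks on the spans. In the other direction, 4 of 35 ecd1 peaks on the spans overlapped at least 2 control peaks, where 4.22% of all ecd1 peaks did. Broad peaks make up much of this, since 10 of the 31 were at least 5000 bp wide and 5 of these 10 overlapped several ecd1 peaks, against 39.1% of all 504 control peaks of that width.

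By the authors' deposited tables, *ds* had an ecd1-side region of 0.94 (2L:708431-708855), also named for the non-coding gene *CR44988*, inside a peak of 1.46 in control and 1.85 in ecd1. A control-side region of 0.60 in the authors' deposited table (2L:649995-650192) lay 58239 bp to the left. It lay in the gap between 2 ecd1 peaks within the broad control peak described above, with 1 bp on an ecd1 peak and all of it on the control peak. Another control-side region in the authors' deposited table, of 0.27 near the right end of *ds* (2L:712439-713461), is named for *CR44988* and lay on no peak of either genotype. Just left of the gene, 170 bp outside it, the ecd1 list had a narrow peak of 2.09 (2L:639271-639843) where the control list had 0.89 over 6751 bp.

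*fj*, the kinase gene (FBgn0000658, 2R:18232761-18236311), was covered whole by a single very broad peak in each genotype. In control it spanned 13295 bp with a height of 1.64 (2R:18224531-18237825), and 13 control peaks were wider. In ecd1 it started at the same base, spanned 16247 bp with a height of 1.92 (2R:18224531-18240777) and was the widest of all 9559 ecd1 peaks. Both peaks were tall for their lists, above 94.8% of the control and 90.3% of the ecd1 peaks, and both were also listed for *CR45310*. The ecd1 peak reached further right, into what the control list gives as the next peak (2R:18237921-18243465, 0.92). The differences called within this block were small. The authors' deposited table gives 0.43 on the ecd1 side for 156 bp inside *fj* (2R:18233620-18233775), above only 5.5% of the regions of that direction. The authors' deposited table gives 0.34 on the control side for the 103 bp between the broad ecd1 peak and the next (2R:18240777-18240879), 4466 bp outside the gene.

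**Figure D2:**
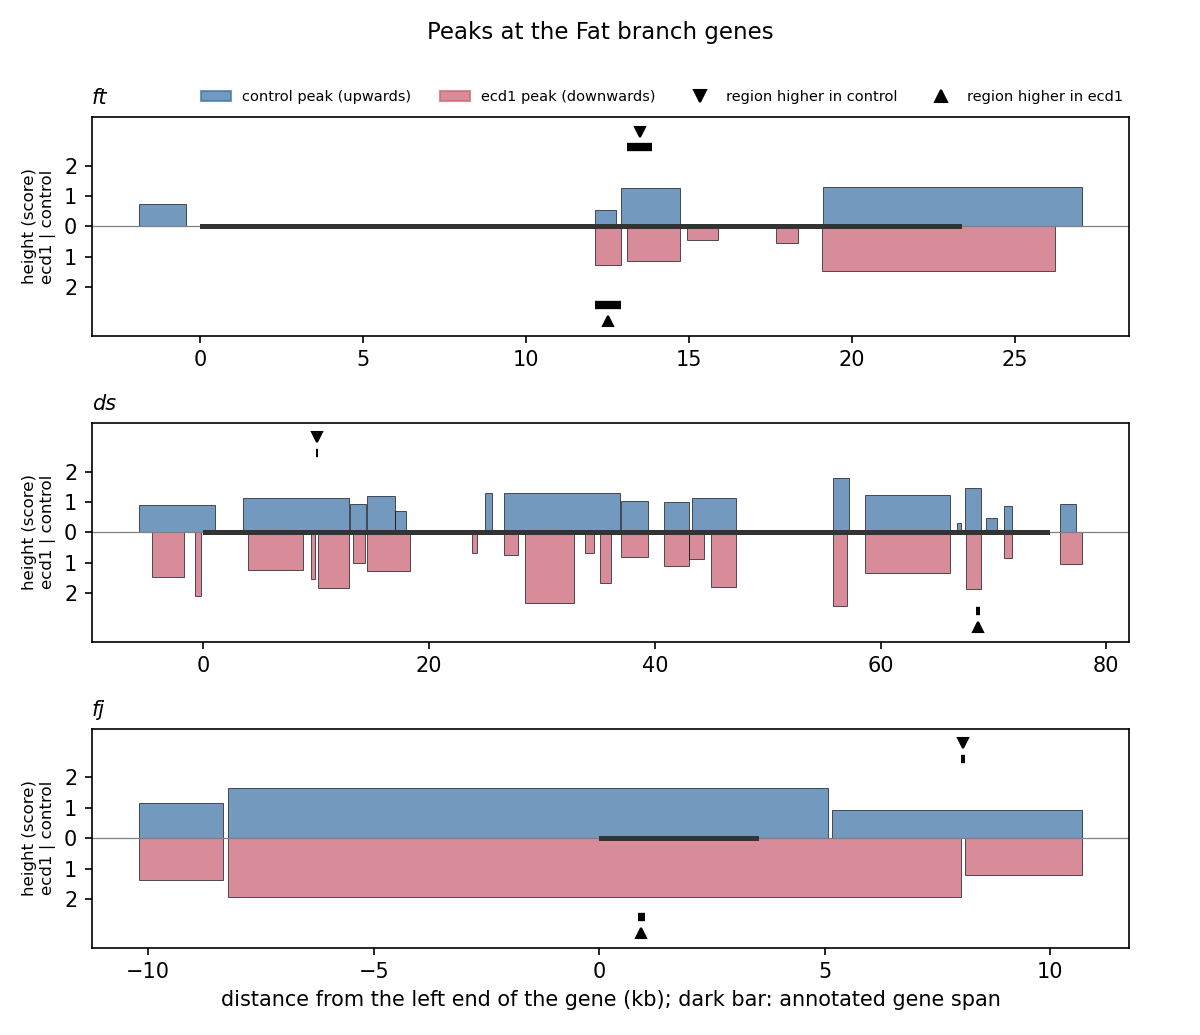
Peaks at *ft*, *ds* and *fj* by distance from the left end of the gene (kb), with control peaks drawn upwards and ecd1 peaks downwards to their height (authors' score), the gene as a dark bar and the regions named for the gene in the authors' difference tables as black strips with a triangle. Opposite differences are 182 bp apart in *ft*, *ds* carries 16 control and 18 ecd1 peaks, and *fj* lies within 1 broad peak of 13295 bp in control and 16247 bp in ecd1.

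*ex*, the gene of the scaffold protein Expanded (FBgn0004583, 2L:431227-448701), was covered to 73.0% in control and 71.8% in ecd1, more than 98.9% and 98.7% of the listed genes of at least 10000 bp. Over the gene body lay a peak of 10653 bp in control (2L:433012-443664, height 1.44) and of 11159 bp in ecd1 (2L:433157-444315, 1.76). At its right edge the ecd1 peak also overlapped a small separate control peak of 0.52 (2L:443852-444501). Across the left end of *ex*, a single control peak of 9986 bp (2L:421867-431852, 1.21) stood where the ecd1 list had a pair of peaks of 1.32 (2L:421867-424569) and 1.95 (2L:426555-431852), and the latter, also listed for *BBS8*, was the tallest at this gene. Inside *ex* the authors' deposited table gives an ecd1-side region of 0.72 (2L:434862-435468, FDR listed as 0), and *ex* is not in the table of the other direction. An ecd1-side region of 0.98 in the authors' deposited table lay 1429 bp left of *ex* (2L:426687-429798) and is named for *BBS8*.

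*Mer*, the fly homologue of the human tumour suppressor *NF2* (FBgn0086384, X:19689697-19693500), had modest peaks. A control peak of 0.98 over its left end (X:19688130-19690980) was matched by ecd1 peaks of 1.09 (X:19687637-19688859) and 1.24 (X:19689349-19690980), the latter ending at the same base as the control peak. Beyond the right end, peaks of 0.84 in control and 0.80 in ecd1 overlapped each other. The peak over the left end was also listed for the neighbour *CG14227*. *Mer* was the only listed member without an ecd1-side region named for it. Its region in the authors' deposited table was on the control side, with 0.69 over X:19688709-19689349, and 23.7% of its bases lay on ecd1 peaks and all of them on the control peak. It lies 348 bp outside *Mer*, between the 2 ecd1 peaks. Adjoining it to the left, the authors' deposited table gives an ecd1-side region of 0.82 (X:19687637-19688709), named for *Ubqn* and *CG14227*. Adjacent opposite regions thus lay beside *Mer* too, but both were outside the gene and only the control-side one is named for it. Unlike at *ft*, that control-side region lay mostly off the ecd1 peaks. How many genes have such adjacent regions was not counted.

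*kibra*, a WW-domain scaffold gene (FBgn0262127, 3R:14697689-14724261), had 3 peaks in each genotype, which covered 66.9% of the gene in control and 65.6% in ecd1. From left to right the control heights were 0.90, 0.97 and 1.18. The ecd1 heights at the same places were 1.01, 1.33 and 1.41, each above the control value. The leftmost peak had the same ends in both lists (3R:14704975-14711851). The rightmost, over the gene end, ran to 14725120 in control and stopped at 14724556 in ecd1. By the authors' deposited tables, *kibra* had an ecd1-side region of 0.52 inside the second peak (3R:14718888-14720443). The authors' deposited table also gives 0.66 on the control side for 3R:14724491-14725120, named for *CG7530* too, which covers the end that the ecd1 peak lacks and has 10.5% of its bases on that peak.

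Within the kinase cassette, *hpo* (2R:19493996-19496856), the gene of the Hippo kinase, had no peak in either list. The nearest were 24320 bp away in control (height 0.72) and 23794 bp away in ecd1 (1.35), and no region of the authors' deposited tables lay within 2000 bp of the gene. Absence from lists of called peaks gives no limit on binding, since the lists hold only peaks past the authors' threshold.

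*sav*, the gene of the adaptor Salvador (FBgn0053193, 3R:23058609-23061304), had 1 peak over its right end, shared with *Ublcp1*. It was 857 bp wide with a height of 1.43 in control (3R:23061047-23061903) and 1326 bp wide with 1.29 in ecd1 (3R:23060578-23061903). The right ends were the same and the ecd1 peak reached further into *sav*, so that 9.57% of the gene was covered in control and 27.0% in ecd1. The control peak stood above 88.6% of its list and the ecd1 peak above 62.9%. The authors' deposited table gives precisely the added stretch (3R:23060578-23061047) as an ecd1-side region of 0.88. This gene thus had a lower and wider peak in ecd1, with a differing region over the added width.

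*wts*, which encodes the kinase that phosphorylates Yorkie (FBgn0011739, 3R:30789625-30806619), had 2 control peaks on its span, of 1.02 (3R:30794230-30796336) and 0.79 (3R:30802349-30805208). The ecd1 list had 1.19 at 3R:30792797-30795145, shifted to the left, 1.11 at the same ends as the second control peak, and a small peak of 0.34 between them that no control peak overlapped. Only 5 bp outside the right end, an ecd1 peak of 1.33 (3R:30806624-30807774) contained a control peak of 0.55 over its last 427 bp (3R:30807348-30807774). That whole ecd1 peak is an ecd1-side region of 0.99 in the authors' deposited table, the tallest region of that direction among the pathway genes, with an FDR listed as 0; it is also named for *dj-1beta*. A second region inside *wts* (3R:30792797-30794621, 0.92 on the ecd1 side in the authors' deposited table) is named only for *mir-1013*. *wts* had no control-side region.

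*yki* (2R:24065975-24068485), the gene of the coactivator on which the pathway converges, overlapped no peak. A control peak of 0.55 lay 1171 bp to its left (2R:24062241-24064804), above 14.6% of the control list, and an ecd1 peak of 0.78 lay 2439 bp away (2R:24061899-24063536). Neither difference table of the authors names *yki* or *hpo*. The members absent from the tables were thus the first kinase and the final coactivator, both with short spans of 2861 and 2511 bp; *sav*, with 2696 bp, was listed.

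**Figure D3:**
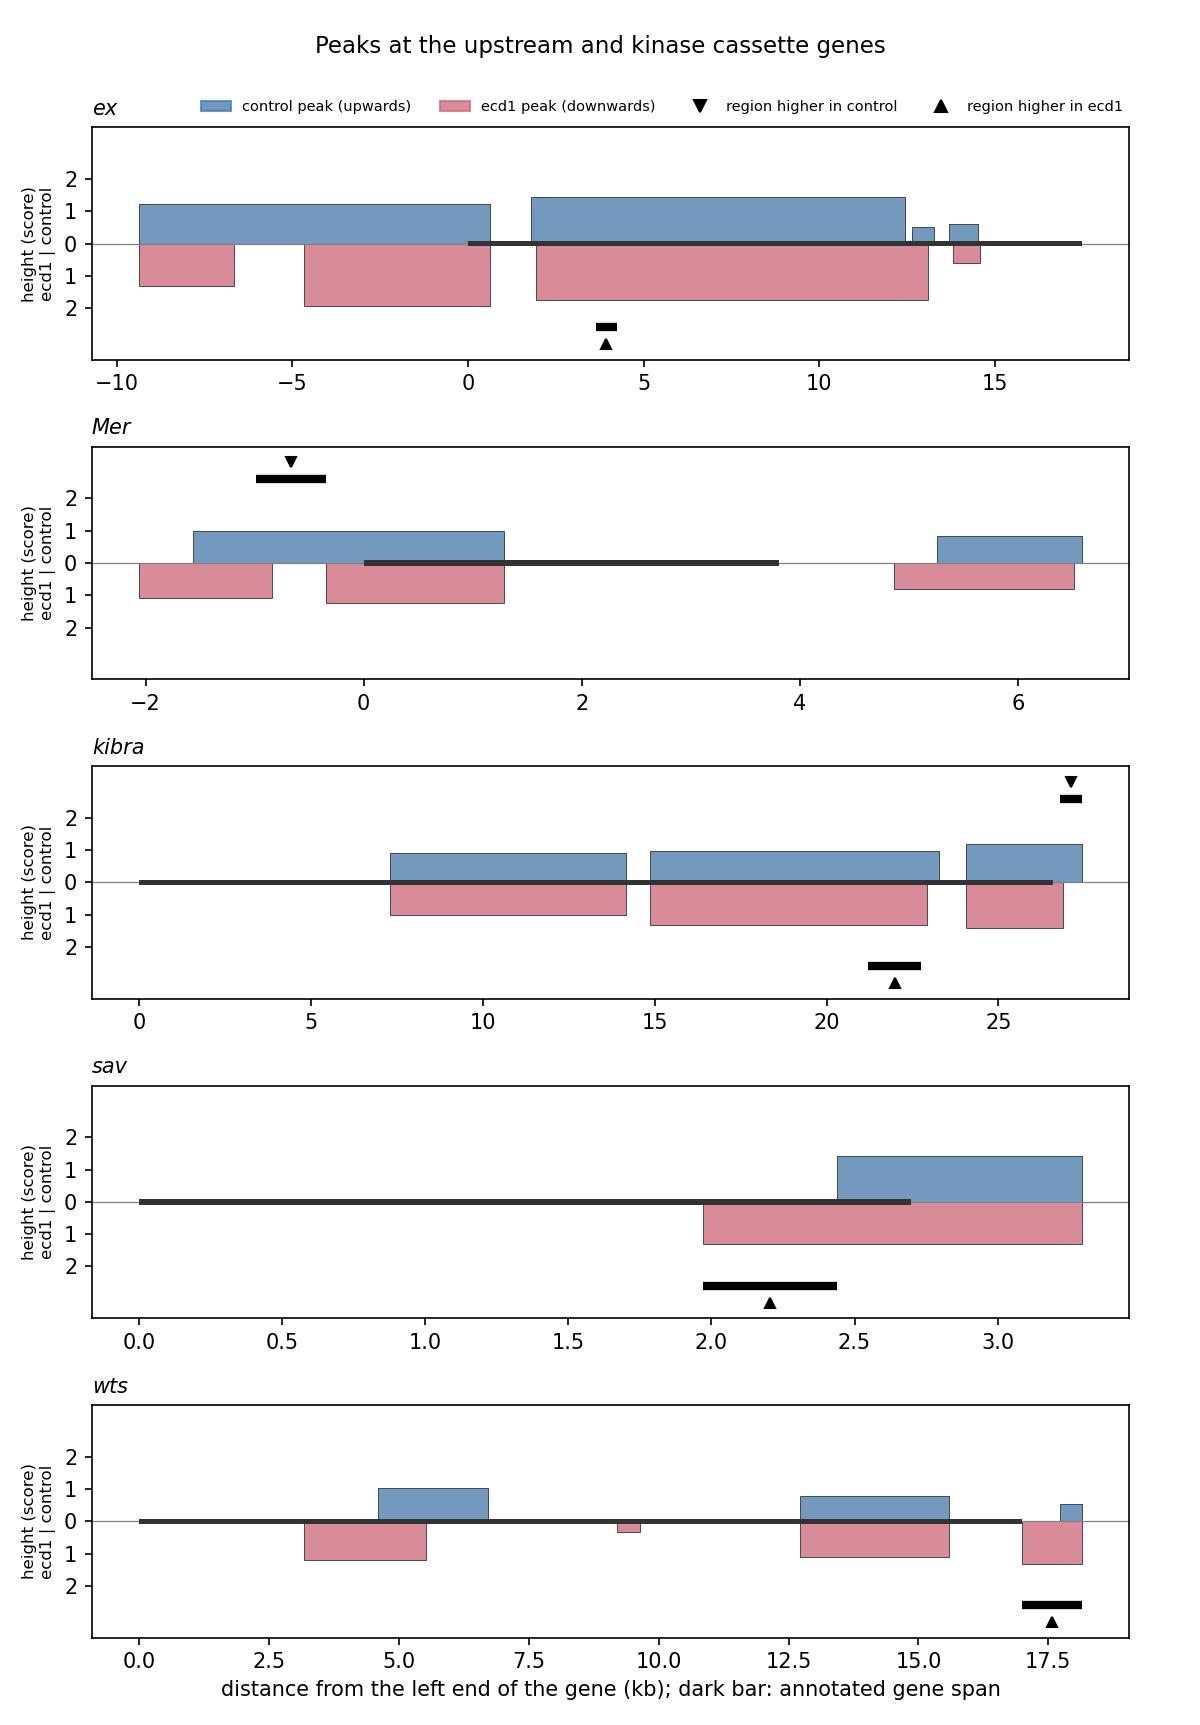
Peaks at *ex*, *Mer*, *kibra*, *sav* and *wts* by distance from the left end of the gene (kb), drawn as control upwards and ecd1 downwards to their height (authors' score), with the gene as a dark bar and the regions named for the gene in the authors' difference tables as black strips with a triangle. The strip at *sav* marks the part of the ecd1 peak that lies outside the control peak, and the strip at *wts* marks the ecd1 peak of 1.33 beside the right end.

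Over the 8 listed genes, 7 had an ecd1-side region in the authors' deposited table, against 57.1% of all genes with a listed peak. A control-side region was named for 5 in the authors' deposited table, against 22.1%, and 4 genes (*ft*, *ds*, *fj* and *kibra*) had both, against 12.3%. None of the 8 had neither, against 33.2%. The shares given for listed genes cover genes in either table, whereas all 8 were listed in both. The shares among genes in both tables were not computed. Long genes have such regions more often. Among listed genes of at least 10000 bp the shares were 76.3%, 42.1% and 34.0%, and of the 5 pathway genes of that length 5, 3 and 3 had them. Of the 3 shorter genes, 2 had an ecd1-side region (53.3% of short listed genes) and 2 a control-side region (18.2%). These counts are small, and the genes were not drawn at random, so nothing particular to the pathway is read from them.

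Heights of the 7 ecd1-side regions ran from 0.43 at *fj* to 0.99 at *wts* in the authors' deposited table, where the median of all regions of that direction is 0.74. Those of the 5 control-side regions ran from 0.34 at *fj* to 1.14 at *ft*, where the median is 0.52 in the authors' deposited table. A height of at least 1 was reached on the ecd1 side by 0 of the 8 listed genes, against 12.4% of all listed genes, and on the control side by 1 of the 8 (*ft*), against 1.11%. Every region named for a pathway gene lay wholly on peaks of the genotype in which it was higher. The share of all regions that lay wholly on such peaks was not computed. Of all regions, 23.6% on the control side and 10.5% on the ecd1 side overlapped no such peak, which leaves out partly covered regions. None of the 5 and none of the 7 lay wholly off the peaks of the other genotype, against 55.2% and 36.0%. The control-side regions of *ds* and *fj* and the ecd1-side region of *sav* met them only by single bases at their ends. The genes were listed for both genotypes, which favours such overlap relative to these shares and the next ones over all regions. Under 50% of the bases were on peaks of the other genotype for 4 of the 5 control-side regions (all but *ft*), against 80.8% of all such regions, and for 2 of the 7 on the ecd1 side (*sav* and *wts*), against 45.1%. The control-side regions of *ds*, *fj*, *Mer* and *kibra* lay at gaps or ends of ecd1 peaks, while 5 of the 7 on the ecd1 side lay mostly where both genotypes had a peak.

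Peaks at the pathway genes largely overlapped between the genotypes. The peaks were taken at genes listed for both genotypes, which favours overlap relative to the shares over all peaks. All 19 control peaks shared at least 1 bp with an ecd1 peak, against 83.5% of all control peaks. In the ecd1 list 21 of the 23 did so with a control peak, against 76.8%, and the other 2 were the low ecd1 peaks in *ft*. Counted over the whole gene spans, the shares were 28 of 31 and 31 of 35, and the unmatched control peaks, of 0.31, 0.48 and 1.28, were all in *ds*. With a reciprocal overlap of 50% in place of 1 bp, 16 of the 19 and 16 of the 23 had a partner. The shares of all peaks at 50% are not given here, and those at 1 bp are no like measure. Peaks whose 2 ends matched exactly between the lists numbered 4, at *ds*, *fj*, *kibra* and *wts*. They had heights of 1.22, 1.15, 0.90 and 0.79 in control and 1.34, 1.36, 1.01 and 1.11 in ecd1. All 4 were thus taller in ecd1, against 85.0% of the 1801 such peaks of the genome, whose median difference was 0.28. Over the gene spans, 2 peaks of *ds* went the other way, with 1.04 against 0.80 and 0.88 against 0.86.

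The other genes of the pathway were examined as 44 genes in 5 groups, of which 40 had a listed peak. An ecd1-side region was named in the authors' deposited table for 27 of the 40 (67.5%, against 57.1% of all listed genes), a control-side region for 15 (37.5%, against 22.1%), and 11 had neither. *crb*, the gene of the apical determinant Crumbs, has an ecd1-side region of 0.99 and a control-side region of 0.55 in the authors' deposited tables without a listed peak. *mats*, the gene of a cofactor of Warts, *Pez* and *Wbp2* are in no table.

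Most of these genes are long. Among the 25 with a span of at least 10000 bp, 80.0% had an ecd1-side and 48.0% a control-side region, against 76.3% and 42.1% of all listed genes of that length. Among the 15 shorter ones 7 (46.7%) and 3 had them, against 53.3% and 18.2%. Within each length class the shares were thus close to those of genes in general.

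The groups are small, and differences between them were not tested. In the Fat branch, 3 of 7 genes had an ecd1-side and 1 a control-side region, against the 57.1% and 22.1% of all listed genes that apply to each group here. The authors' deposited table gives 0.96 for *Fbxl7*, an F-box gene acting downstream of Fat, and 0.82 for *lft*, with 0.55 in the control direction for *lft*. *d*, which encodes the atypical myosin Dachs, had 0.74 in the authors' deposited table, while *app*, *dco*, *Dlish* and *Zyx* had none. Among apical and polarity genes, 7 of 12 listed genes had an ecd1-side and 5 a control-side region. The authors' deposited table gives 1.36 for *sdt*, the Crumbs partner Stardust, and 1.09 for *ed*, a cell adhesion gene. The control side holds 0.80 for *sdt* and 0.70 for *scrib* in the authors' deposited table. Of the regulators of the cassette, 4 of 8 had an ecd1-side and 2 a control-side region, with 0.96 and 0.79 for the Ste20 kinase gene *msn*, 0.95 in the ecd1 direction for *Rassf* and 0.62 in the control direction for *hppy* in the authors' deposited tables.

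All 5 listed nuclear partners and all 8 known targets of Yorkie had an ecd1-side region, against 57.1% of all listed genes. Of these 13 genes, 4 partners and 6 targets have spans of at least 10000 bp, a length at which 76.3% of listed genes have one. Among the partners the authors' deposited table gives 0.96 each for *vg*, the wing selector gene, and *tsh*, and 2 of the 5 (*tsh*, 0.64, and *hth*, 0.40) also had a control-side region. *sd*, whose product tethers Yorkie to DNA, had 0.65 in the authors' deposited table. Among the targets the tallest were *wg*, the Wnt ligand gene, with 1.63 at a region 3408 bp from the gene, and *Diap1*, the inhibitor of caspases, with 1.23 inside it, both from the authors' deposited table. The microRNA gene *ban*, a growth-promoting target, had 0.93 at 663 bp from the hairpin in the authors' deposited table. Of the targets 5 also had a control-side region, against 22.1% of all listed genes and 42.1% of the long ones, with 0.63 for *vn* and 0.59 for *CycE* in the authors' deposited table. Among genes in both tables, the listed peak was taller in ecd1 for 5 of 5 partners, 7 of 8 targets, 4 of 5 genes each of the Fat branch and the cassette regulators, and 4 of 10 apical and polarity genes. This makes 24 of 33 in all, against 79.7% of all genes in both tables and 5 of 8 of the pathway genes described above.

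**Figure D4:**
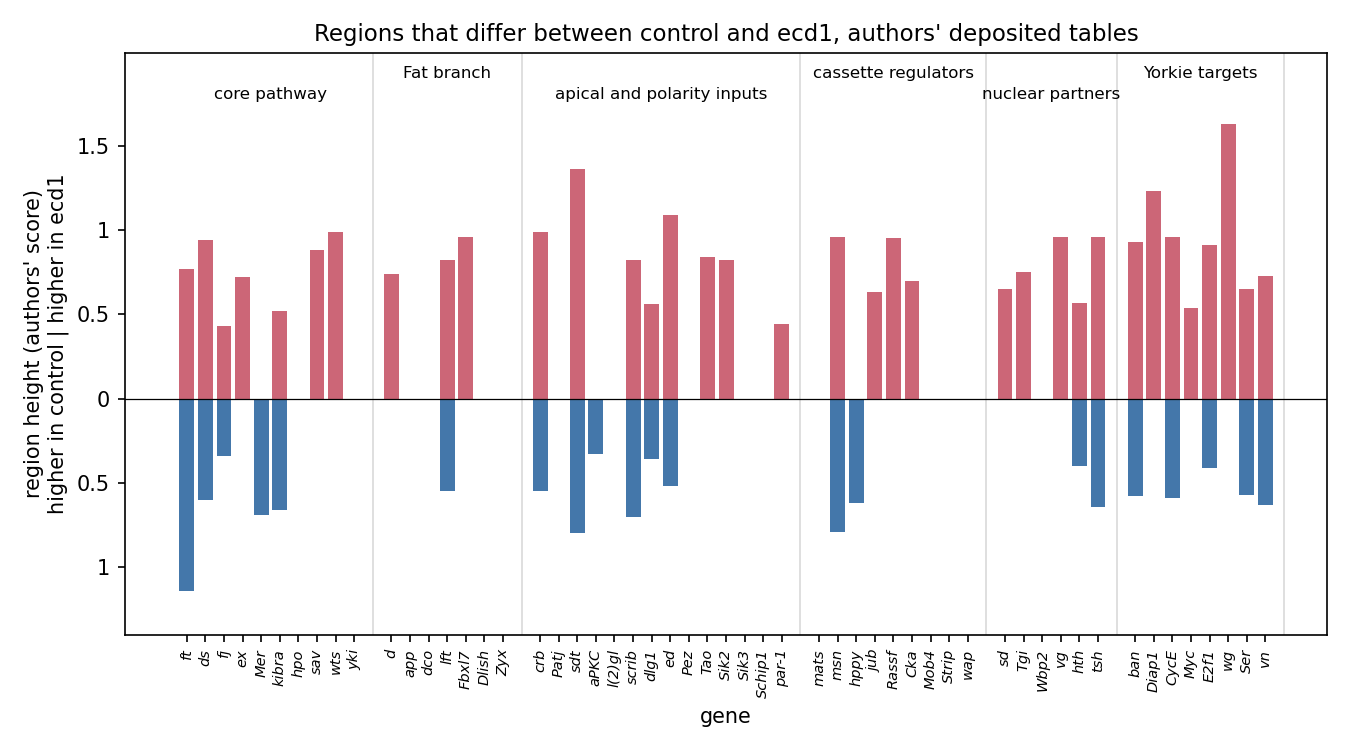
Heights of the regions that differ between control and ecd1 in the authors' deposited tables (authors' score), upwards for regions higher in ecd1 and downwards for regions higher in control, for the 10 pathway genes and 44 other genes of the pathway by role; a gene without a bar is in neither table. *ft* has the deepest control-side bar (1.14) and *wg* the tallest ecd1-side bar (1.63).

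The tissue label could not be checked from these files, because binding of RNase H1 is no measure of expression. The wing pouch genes *nub*, *vg*, *rn* and *Dll* all had listed peaks in both genotypes, but so did *elav*, a neuronal gene, and *twi*, a myoblast gene. *Hml*, a blood cell gene, was listed in ecd1 only (0.83) and *Lsp2*, a fat body gene, in neither. The authors' deposited tables name ecd1-side regions for all 4 pouch genes and for *twi*, and control-side regions for *rn* (0.65), *Dll* (0.43) and *twi* (0.53). All of these genes are at least 10000 bp long, where 76.3% and 42.1% of listed genes have such regions. Their part in the results above was not tested.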

How the data were processed

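Methylation-specific PCR amplicons from wing discs were sequenced, per the labels' protocols; the genome build is BDGP6 per the submitters' processing notes. Alignment, peak calling, how replicates were combined and how the Dam-only libraries entered were not given in the sources used here. For each genotype the authors deposited a peak list and a table that names 1 peak for a gene, and tables of regions higher in control or in ecd1. Peak height is the authors' deposited score, of unstated scale. The FDR, a q-value, was deposited by the authors and is under 0.01 throughout. The planned test on values per library could not be made, since the files hold none, so every difference is the authors' call.

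From these files, overlaps (at least 1 bp), distances, coverage of gene spans and ranks within a list were computed with Python 3.11.15 and pandas 2.3.3, with interval functions checked on simulated data. Symbols were matched to RefSeq by symbol, CG number or unique synonym for 99.4% of 9826 listed genes. *d* and *ban*, whose synonyms are shared between genes, were assigned by hand to the RefSeq symbols *dachs* and *mir-ban*. Strand, exons and sequence were not used here. Shares over all listed genes or peaks are given for the main counts, and by span length for the differing regions. All 10 genes are described with any regions named for them, but not with every peak, least of all at *ds*. Up to 2 others per role are described, with the largest heights in each direction. *d*, *sd*, *ban*, *crb* and genes that complete a small count were named after their values were seen. The pathway genes, lists and rules were chosen with earlier results of these data known.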

Additional observations from a re-analysis of the deposited data

How the results depend on the processing

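With peaks counted over the annotated gene spans, the pathway genes had 31 control and 35 ecd1 peaks instead of 19 and 23, mostly at *ds*. The median height of the tallest peaks moved to 1.44 in control and 1.71 in ecd1 with a window of 5000 bp, and to 1.29 in ecd1 with the listed peak alone, where *ft* (1.29 and 1.28) and *kibra* (1.18 and 1.01) were no longer taller in ecd1. The tallest peak was higher in ecd1 for 7 of 8 genes, for 4 by rank within the list and for 4 of the 4 genes with a peak of the same ends. The count by rank has no share over all genes beside it. Regions of height at least 1 remained for 0 genes in the ecd1 direction and for 1 in the control direction, instead of 7 and 5. Of the summary values under the alternatives, 28 stayed within 1.5 times (counts) or the same (heights), and 9 moved. Those with an FDR under 0.001 and a reciprocal overlap of 50% were among the 28. By that rule the drop from 7 to 5 genes taller in ecd1 with the listed peak alone counts as unchanged. These 5 of 8 compare with 79.7% of all genes in both tables. Overlapping pairs and some windows were alternatives chosen after seeing the data. No paired analysis was possible because values of individual libraries were not part of the files, and for the same reason no replicate could be left out. Depth is unknown, so a gene without a peak cannot be called unbound.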
